A study of Homo sapiens with 8 samples.

Results

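The suppressors of cytokine signalling, SOCS1 to SOCS7, and their relative CISH are a family of 8 intracellular inhibitors. All 8 were found by gene symbol among the 19475 entries of the expression table, and 44 of the 70751 m6A peaks in the 4 peak lists carried one of the 8 symbols. The samples were HCT116 cells, an established human colorectal carcinoma line, treated with PBS (Control) or with Fusobacterium nucleatum (FUSO), a bacterium found in colorectal tumors. The mRNA modification N6-methyladenosine (m6A) was mapped by sequencing fragments of polyadenylated RNA that an m6A antibody had pulled down (IP) beside the unselected fragments (input). Each of the groups Control input, Control IP, FUSO input and FUSO IP held 2 libraries, which gave 4 input libraries and 4 peak lists, 1 list for each replicate. The study's methods call the replicates biological, and neither these nor the labels say that they were separate cultures, so p-values measure the spread between these libraries. The cells were 1 line, so nothing here describes another line or a tumor.

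Cytokine receptors without a kinase of their own signal through Janus kinases (JAKs), which phosphorylate STAT transcription factors. SOCS proteins shut this pathway down again: an SH2 domain docks on phosphorylated receptors or kinases, and a C-terminal SOCS box recruits elongins and a cullin ubiquitin ligase. SOCS1, SOCS2, SOCS3 and CISH are classic genes induced by STATs and act as feedback inhibitors, and SOCS4 to SOCS7 are better known for acting on receptor tyrosine kinases and insulin signaling. In mRNA, m6A is deposited mainly at GGAC and related motifs, often in long exons and around the stop codon.

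The m6A peaks of SOCS2, SOCS4, SOCS5 and SOCS6 lay mainly in the coding sequence (CDS). Those of SOCS3 and SOCS7 lay mainly in the 3′UTR, and those of CISH in both. The windows below show, for 6 members, the 60 coding nucleotides (nt) inside the peaks of all 4 lists that held the most GGAC. For SOCS7, where the bases common to all 4 lists had no coding base, the line is a 25-nt site in the 3′UTR. All are written 5′ to 3′ on the transcript strand with GGAC in capitals, as candidate sites under the peaks and not as mapped methylated bases.
SOCS2: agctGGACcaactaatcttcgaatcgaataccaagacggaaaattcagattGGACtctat
SOCS3: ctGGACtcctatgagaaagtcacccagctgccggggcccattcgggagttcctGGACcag
SOCS4: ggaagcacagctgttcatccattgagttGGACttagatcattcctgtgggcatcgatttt
SOCS5: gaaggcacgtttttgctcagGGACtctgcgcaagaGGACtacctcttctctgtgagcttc
SOCS6: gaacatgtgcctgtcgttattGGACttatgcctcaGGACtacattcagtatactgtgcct
CISH: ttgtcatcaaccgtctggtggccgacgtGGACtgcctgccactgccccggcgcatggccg
SOCS7: gggcatcttaGGACtggaggggctc
On GRCh37 these lie at chr12:93968625-93968684 on the + strand in exon 2 of SOCS2, chr17:76354517-76354576 on the - strand in exon 2 of SOCS3, and chr14:55509959-55510018 on the + strand in exon 3 of SOCS4. The others are chr2:46986867-46986926 on the + strand in exon 2 of SOCS5, chr18:67992523-67992582 on the + strand in exon 2 of SOCS6, chr3:50645070-50645129 on the - strand in exon 3 of CISH, and chr17:36555951-36555975 on the + strand in exon 10 of SOCS7. The windows of SOCS2, SOCS3, SOCS5 and SOCS6 held 2 GGAC each. Of the 8086 windows of 60 nt on the coding sequences of the family, 30% held at least 1 GGAC and 3.75% at least 2, and the printed windows were chosen for having the most. In SOCS5 and SOCS6 both copies read GGACT, and in CISH and SOCS4 the single copy did.

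Expression was read as FPKM, fragments scaled by transcript length and by the mapped total, in the 4 input libraries. In these bulk samples, fewer cells that carry an mRNA and less of it per cell cannot be told apart. The epithelial keratins KRT8, KRT18 and KRT19 were between 1071 and 2286 FPKM and EPCAM between 162 and 184, whereas the enterocyte genes VIL1 and LGALS4 were at most 0.251. PTPRC, CD3E, COL1A2, DCN and PECAM1, which mark leukocytes, fibroblasts and endothelium, were at most 0.0111. CD68 and COL1A1, of the same marker lists, had 7.15 to 9.3 and 3.78 to 5.72 FPKM, and VWF had 0.0651 to 0.123. Read counts are not among the values used here, so absolute depth is unknown. Between 14566 and 14816 genes were above 0 in a library.

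SOCS6 was the most abundant member, with 20.8 to 22 FPKM over the 4 input libraries, and its mean was 2.62 times that of SOCS3. SOCS3, the inhibitor that binds the shared receptor IL6ST (gp130), had 7.76 to 9.18 FPKM, and SOCS5 had 7.07 to 8.32. These ranges overlapped, with SOCS3 the higher in 3 of 4 libraries, so the pair was not separated beyond its spread. SOCS7 followed with 5.86 to 6.99 FPKM, then SOCS4 with 4.89 to 5.57 and SOCS2 with 2.11 to 3.09, each range lying wholly below the one before it. CISH had 1.03 to 1.66 FPKM and SOCS1, which blocks JAK kinase activity directly, 0.644 to 1.09, and these lowest ranges overlapped. The feedback inhibitors SOCS1, SOCS2 and CISH were thus the 3 least abundant members, and SOCS3 was not among them.

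The next comparison asked whether F. nucleatum changed the expression of the family. In each of the 7 SOCS genes both FUSO libraries were above both Control libraries, and in CISH both were below, yet no member passed the test over all genes. Groups that do not overlap are common with 2 libraries against 2: FUSO was wholly above Control in 26.1% of the 11088 tested genes and wholly below in 21.1%. By limma on log2(FPKM + 1), 0 of the 7 tested members were called at an adjusted p under 0.05, beside 0.667% of all tested genes called higher and 0.135% called lower. At an unadjusted p under 0.05, limma had 1 of the 7, SOCS2, beside 13.5% of all tested genes, so the family's share was near the background. The median log2 fold change of the 7 was 0.13, beside 0.01 for all tested genes, and 6 of the 7 (85.7%) were above 0, beside 54% of all tested genes.

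SOCS2, which limits signaling from the growth hormone receptor, had the lowest unadjusted p of the tested members. It had 2.11 and 2.37 FPKM in Control 1 and 2 and 2.82 and 3.09 in FUSO 1 and 2. The FUSO mean was 1.32 times the Control mean, 2.95 ± 0.191 against 2.24 ± 0.183 (SD, n = 2). The log2 fold change was 0.29 (SE 0.096, 95% interval 0.05 to 0.53), with an unadjusted p of 0.0272 and an adjusted p of 0.32 by limma. It thus ranked 943 of 11088 genes by p and did not pass the threshold.

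SOCS1 had 0.644 and 0.674 FPKM in the Control libraries and 1.07 and 1.09 in the FUSO libraries. The FUSO mean was 1.64 times the Control mean, the largest ratio of the family at its lowest level. Its mean of 0.869 FPKM was below the filter of 1 FPKM, so it was not in the main test. With no filter, limma gave SOCS1 a log2 fold change of 0.33 (95% interval 0.17 to 0.48) with an unadjusted p of 0.00333 and an adjusted p of 0.227 over 15695 genes. With the filter at 0.5 FPKM the adjusted p was 0.261, so SOCS1 was not called in either fit.

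SOCS3 had 7.84 and 7.76 FPKM in Control and 7.93 and 9.18 in FUSO, so FUSO 1 lay close to the Control libraries and FUSO 2 carried the difference. Its log2 fold change was 0.12 (95% interval -0.11 to 0.34), and limma gave an adjusted p of 0.597. Over the 12 alternatives to the fit it lay between 0.02, without FUSO 2, and 0.21, without FUSO 1.

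CISH, which blocks the docking of STAT5 on receptors, was the member with lower values in FUSO. It had 1.41 and 1.66 FPKM in Control and 1.39 and 1.03 in FUSO, so Control 1 and FUSO 1 nearly met. The log2 fold change was -0.20 (95% interval -0.51 to 0.11), with an adjusted p of 0.509 by limma. It was -0.32 without FUSO 1 and -0.08 without FUSO 2, so its size rested on single libraries. Exons of MAPKAPK3 on the opposite strand share 107 nt with the exons of CISH. MAPKAPK3 had a mean of 43 FPKM, and the authors' counting is not stated to use strand, so reads of the pair cannot be told apart there.

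The members that act on receptor tyrosine kinases and insulin signaling had log2 fold changes of 0.06 to 0.15, beside 0.12 for SOCS3. SOCS5, which promotes the breakdown of the EGF receptor, had 7.61 and 7.07 FPKM in Control and 8.05 and 8.32 in FUSO. SOCS4, its closest relative, had 5.08 and 4.89 in Control and 5.57 and 5.51 in FUSO. The log2 fold changes were 0.14 for SOCS5 (95% interval -0.06 to 0.33) and 0.13 for SOCS4 (95% interval -0.07 to 0.32). SOCS7, which binds insulin receptor substrates and the adaptor NCK1, had 5.86 and 6.29 FPKM in Control and 6.99 and 6.69 in FUSO, a log2 fold change of 0.15 (95% interval -0.05 to 0.35). SOCS6, a binding partner of the receptor KIT, had the smallest log2 fold change, 0.06 (95% interval -0.09 to 0.21), with 20.8 and 21 FPKM in Control and 22 and 21.8 in FUSO. By limma the adjusted p of these 4 lay between 0.469 and 0.667, and every interval held both a small decrease and an increase.

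**Figure D1:**
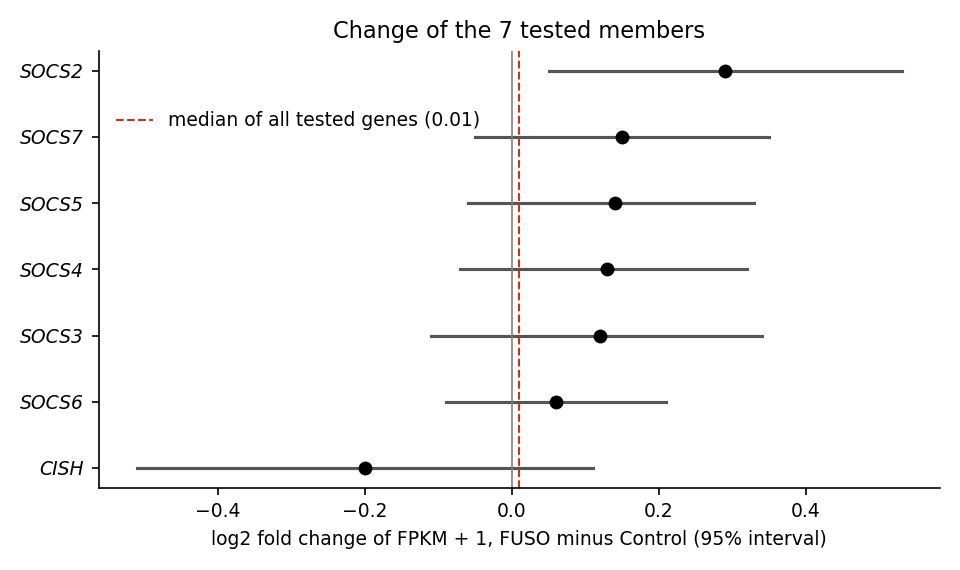
Log2 fold change of FPKM + 1 (FUSO minus Control) of the 7 tested members with 95% intervals from limma, and the median of all tested genes at 0.01 as a dashed line. The interval of SOCS2 lies above 0 (0.05 to 0.53) and those of the other 6 members include 0.

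Among the tested genes whose pattern over the 4 input libraries was most like that of SOCS2 were TBCCD1, PELO, MRAS and TADA2B. Likeness was the Euclidean distance between log2(FPKM + 1) values centered on each gene's mean, and it ran from 0.0169 for TBCCD1 to 0.0313 for TADA2B. With 4 libraries, such distances describe these values only.

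The partners of the family in the pathway were taken from 8 lists. Of all tested genes, limma called 0.667% higher and 0.135% lower, and their median log2 fold change was 0.01. Of the 12 tested of 19 JAK-coupled receptors, 1 was called higher by limma and none lower: IL6ST, the signal-transducing chain for IL-6 type cytokines and the receptor that SOCS3 binds. It had 0.201 and 0.477 FPKM in Control and 3.46 and 3.34 in FUSO, a log2 fold change of 1.72 (SE 0.128) with an adjusted p of 0.00852. Its Control values alone would not have passed the filter. IFNGR2, a chain of the interferon gamma receptor, went from a mean of 18.7 ± 0.208 to 24.3 ± 0.16 FPKM (SD, n = 2) and was not called (adjusted p = 0.106 by limma). The median log2 fold change of the receptors was 0.19.

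Of the 6 tested of 22 cytokines that signal through JAKs, 2 were called higher, CLCF1 and LIF, both ligands that signal through IL6ST. CLCF1 had 32.1 and 30.3 FPKM in Control and 44.7 and 48.1 in FUSO, with an adjusted p of 0.0385 by limma. LIF had 60.2 and 60.2 in Control and 79.7 and 80.1 in FUSO, with an adjusted p of 0.0459. Of the 12 STAT-responsive genes, all tested, 2 were called higher. IRF1, an interferon-induced transcription factor, had 2.77 and 2.34 FPKM in Control and 7.72 and 7.5 in FUSO, a log2 fold change of 1.28 with an adjusted p of 0.00852 by limma. CEBPD, a transcription factor induced by IL-6, had 16.2 and 14.6 in Control and 25.3 and 25.8 in FUSO, with an adjusted p of 0.0265. Without FUSO 1 or without FUSO 2 none of the 5 was called, with adjusted p between 0.104 and 0.461 by limma, and calls over all genes fell from 89 to 24 and 16. The log2 fold changes were about as large in these fits, 1.70 and 1.74 for IL6ST, 1.26 and 1.30 for IRF1 and 0.41 and 0.40 for LIF. CLCF1, LIF and CEBPD were also not called with no filter on low values (0.0731 to 0.0893) or without the trend (0.054 to 0.137).

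The other 5 lists had no call by limma. STAT4 had the lowest unadjusted p of the 9 tested JAKs and STATs, with 1.3 and 1.43 FPKM in Control and 2.59 and 1.94 in FUSO (adjusted p = 0.258), and STAT6 came next with a log2 fold change of -0.17. Among the 10 tested other brakes on the pathway, SH2B3 and CBL had log2 fold changes of 0.25 and 0.19. Among the 9 ubiquitin ligase partners of the SOCS box, CUL2 had 0.27 and NEDD8 -0.09. Of the 13 tested other SOCS-box proteins, WSB1 had 0.17 and RAB40C -0.21, and of the 10 tested receptors and adaptors bound by SOCS proteins, TIRAP had -0.23 and IGF1R 0.23. The medians of these 5 lists lay between -0.02 and 0.05, near that of all tested genes.

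The m6A lists were then compared to ask where the family carried m6A peaks and whether F. nucleatum moved them. A list gives only the peaks that were called, so where it has none the level of the mark is not known. The value of each peak was read as the authors' p-value of IP over input. Peaks named for the family numbered 10 in Control 1, 13 in Control 2, 11 in FUSO 1 and 10 in FUSO 2. The means were 11.5 ± 2.12 in Control and 10.5 ± 0.707 in FUSO (SD, n = 2; two-sided exact permutation p = 1, where the design allows no p under 0.33). They covered 8021 and 9310 nt in Control and 8620 and 8530 nt in FUSO, which also did not separate the groups. Peaks of all lists merged into 10 regions on the family, of which 7 were in all 4 lists. None was lost (in both Control lists and no FUSO list) and none was gained, beside 2.64% and 2.38% of the 22001 regions of the whole series. These counts rested on single lists, since leaving out 1 list gave between 0 and 1 lost and between 0 and 1 gained region. The counts over all regions were then higher too, as listed in the closing section.

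SOCS6 carried the strongest peak of the family by p-value in every list. SOCS6 was also the most abundant member, and the part of level and of peak length in such p-values was not tested. The deposited p-value was 1e-236 in Control 1, 9e-303 in Control 2, 0 as listed in FUSO 1 and 1e-237 in FUSO 2. Only between 0.964% and 1.5% of the peaks of a list had a p-value as low. In all 4 lists the peak covered the whole 5′UTR, the whole CDS of 1608 nt and 175 to 205 nt of the 3′UTR, which is 3923 nt long. On the canonical transcript its shared part, chr18:67956281-67993687 in exons 1 and 2, had 1955 nt with 10 GGAC. The near end lay before this transcript in all 4 lists, between 67956137 and 67956227, and differed within each group. The far end differed by 30 nt, which were in both FUSO lists and in neither Control list and held no GGAC.

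SOCS5 and SOCS4 had the same layout, with a peak over most of the CDS that ended before the stop codon and none in the long 3′UTR. In SOCS5 the p-value was 5e-56 in Control 1, 6.3e-85 in Control 2, 4e-96 in FUSO 1 and 3.2e-87 in FUSO 2, and the peak covered 81.6%, 95.5%, 97.4% and 90.9% of the CDS in the same order. The 1315 nt shared by all lists, chr2:46985834-46987148 in exon 2, held 9 GGAC. A block over exon 1 was part of the peak in Control 2 and FUSO 1 and absent from the peaks of Control 1 and FUSO 2, so it did not follow the treatment.

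In SOCS4 the main peak had a p-value of 2e-34 in Control 1, 2.5e-48 in Control 2, 1.3e-48 in FUSO 1 and 1.3e-27 in FUSO 2, and the 4 lists shared 1260 nt of exons 2 and 3, with only 2 GGAC. Its 5′UTR differed. In exon 1 both Control lists had a separate peak, with p-values of 0.00028 and 2e-08, and 90 nt of it (chr14:55494054-55494143) were in no FUSO list. The FUSO 1 peak began at the next base and so shared 1 nt with the Control peaks, which is why this stretch was not counted as a lost region. It held no GGAC, and FUSO 2 had no peak in exon 1.

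SOCS2, with the shortest CDS of the family (597 nt), had 1 peak per list that ran from the 5′UTR through exon 1 into exon 2. The p-value was 4e-13 in Control 1, 2.5e-29 in Control 2, 1.3e-31 in FUSO 1 and 2e-18 in FUSO 2. It covered 81.6% and 91.6% of the CDS in Control and 91.6% and 100% in FUSO. The p-values of the groups overlapped, and the peak reached past the stop codon, by 10 nt, in FUSO 2 only. The shared 569 nt held 6 GGAC.

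SOCS3 had peaks across the stop codon and along its 3′UTR. Its strongest peak had a p-value of 3.2e-35 in Control 1, 5e-30 in Control 2, 1.3e-37 in FUSO 1 and 6.3e-39 in FUSO 2, and lay from the CDS to 1016 nt after the stop codon in both Control lists. In FUSO it ended earlier, 660 nt after the stop codon in FUSO 1 and 719 nt in FUSO 2, and the next peak began after a gap. The gap left 118 nt of the 3′UTR, chr17:76353662-76353779, in peaks of both Control lists and of neither FUSO list, with 1 GGAC inside. In the other direction, 59 nt at chr17:76353424-76353482 and 29 nt at chr17:76353008-76353036 lay in peaks of both FUSO lists and of neither Control list, in all 88 nt with no GGAC. These are edges of peaks within 1 merged region that all 4 lists shared, and their difference was not tested. In all, peaks covered 78.4% and 85.6% of the 3′UTR in Control and 82% and 83.8% in FUSO.

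CISH had weaker peaks by p-value around the stop codon. Control 1 had a single peak of 598 nt with a p-value of 7.9e-11, while the other 3 lists had 2 shorter peaks each. Of these, the peak over the stop codon had a p-value of 8.7e-05 in Control 2, 2.2e-05 in FUSO 1 and 3.9e-05 in FUSO 2. The other peak, wholly in the 3′UTR, had 6.9e-05, 0.0071 and 0.0006 in the same order. Peaks covered 36% and 32.2% of the CDS in Control and 24.5% and 20.6% in FUSO. Of the 3′UTR they covered 28.4% and 44.5% in Control and 9.84% and 25.8% in FUSO. The groups did not overlap in either part, which 2 lists against 2 cannot separate at 0.05. How many of all genes had coverage apart in this way was not counted. The difference in CISH included 60 nt of coding sequence, chr3:50645228-50645287, in both Control lists only and without GGAC. CISH input levels were also lower in FUSO (1.41 and 1.66 against 1.39 and 1.03 FPKM), and the part of that level in the shorter peaks was not tested. All lists shared 209 nt from the CDS to 49 nt after the stop codon, with 1 GGAC, the one in the window shown above.

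SOCS7 had little of its length in peaks. The 151 nt shared by all lists, chr17:36555848-36555998, lay 113 to 263 nt after the stop codon in exon 10. The FUSO 2 peak also reached back over the stop codon, with 8 nt of CDS, and the peak over them had a p-value of 6.6e-05 in Control 1, 3.2e-11 in Control 2, 1.6e-11 in FUSO 1 and 1.6e-06 in FUSO 2. A second region near the 3′ end was in Control 1, Control 2 and FUSO 2 and not in FUSO 1, with p-values between 1.7e-05 and 0.0017. Another, in the CDS of exon 1, was in Control 2 only, with a p-value of 0.00091.

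SOCS1 had a peak in FUSO 1 only, of 149 nt in its CDS at chr16:11348926-11349074, with a p-value of 0.0011. Of the FUSO 1 peaks, 88.4% had a p-value as low or lower, so it was among the weakest of its list. SOCS1 was also the member of lowest level. Of the 1954 genes within 2-fold of its mean FPKM, 67.6% had a peak in at least 1 list and 38.7% in all 4, beside 51.5% in all 4 around the level of CISH and 64.1% to 75.1% around the levels of the other members.

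The peaks of the family were long. In each list 4 of them were over 1000 nt, those of SOCS3, SOCS4, SOCS5 and SOCS6, which is 30.8% to 40% of the family's peaks beside 7.26% to 8.95% of all peaks of a list. Family peaks held between 0.592 and 0.666 GGAC per 100 nt, beside 0.513 to 0.537 in all peaks. The coding sequence of SOCS1, SOCS3, SOCS4, SOCS5 and SOCS6 lies in 1 exon each, that of SOCS2 in 2, of CISH in 3 and of SOCS7 in 9. Of the bases common to all 4 lists, none was coding in SOCS7, 160 of 209 were in CISH, 487 of 569 in SOCS2 and 353 of 1342 in SOCS3. In SOCS4, SOCS5 and SOCS6, 1144 of 1260, 1315 of 1315 and 1608 of 1955 were coding. A link to the number of coding exons was not tested.

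The promoter of CISH is shown because CISH was the member with lower values in FUSO among STAT-induced relatives, a difference that was not called. The motif TTCNNNGAA, to which activated STAT dimers bind, reads the same on both strands. The reference promoters, from RefSeq on GRCh38.p14, run from 250 nt before to 50 nt after a start site, and 5 of the 8 members had one. SOCS2, which STATs also induce, SOCS5 and SOCS7 had none and were not searched. CISH held 4 motifs between -241 and -112, and the windows of SOCS1, SOCS3, SOCS4 and SOCS6 held none. Of 35116 promoters in the table, 7.66% held at least 1 motif and 7 (0.0199%) held 4 or more. The stretch of 157 nt with all 4, at chr3:50611868-50612024 on the - strand of GRCh38.p14, is given with the motifs in capitals.
CISH promoter: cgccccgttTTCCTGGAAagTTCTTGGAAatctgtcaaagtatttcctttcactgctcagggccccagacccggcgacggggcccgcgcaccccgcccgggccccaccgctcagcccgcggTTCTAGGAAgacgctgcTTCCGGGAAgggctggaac
A match describes the letters only, and STAT binding was not measured in these libraries.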

How the data were processed

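Deposited files were 4 peak lists, 1 per replicate, and 1 expression table of the input libraries. Per the labels and methods, the authors trimmed adapters, aligned reads to hg19 (GRCh37) with HISAT2 2.1.0, called peaks of IP over input and computed FPKM with StringTie. The deposited score of each peak, the only value per peak, was read as the authors' p-value. No unassigned value column was used.

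FUSO and Control inputs were compared in limma 3.58.1 under R 4.3.3, with lmFit and then a trended eBayes, on log2(FPKM + 1). Of the entries, 11088 averaged 1 FPKM or more over the 4 libraries and were tested, with Benjamini-Hochberg adjustment over all of them. A pseudocount of 1 shrinks the change of genes at low levels. FPKM are not counts, so the count model of the study's methods was not used. The fit was also run on simulated data drawn with its own fitted SDs, which cannot show how it behaves on these FPKM values.

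Peaks of the 4 lists sharing at least 1 nt in their exon blocks on the same strand were merged into regions and placed on canonical transcripts of GENCODE release 44 mapped to GRCh37, with 1-based coordinates. GGAC was searched on the transcript strand. Promoter sequences are RefSeq's. Replicate means were compared by exact permutation tests. Other steps ran in Python 3.11.15 with SciPy 1.17.1. Depth of the IP libraries is unknown. Low FPKM values placed the input depths at 1, 1.12, 1.24 and 0.91 relative to Control 1, from ratios shared by only 8 to 13 genes.

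Members and lists were chosen with earlier results of these data known. Named from each list are the genes called at an adjusted p under 0.05 and, where fewer than 2 were called, those of lowest p up to 2. Of the 5 genes most like SOCS2 in pattern, 1 is not reported here. Alternatives were the pseudocount, filter, trend, quantile normalization, GC correction, a replicate block, peak p-value, overlap rule and leaving out each library.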

Additional observations from a re-analysis of the deposited data

How the results depend on the processing

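None of the 7 tested members was called or changed sign under the 12 alternatives to the limma fit, and SOCS1, fitted in 2 of them (a filter at 0.5 FPKM and no filter), was not called. The log2 fold change of SOCS2 ran from 0.22 to 0.38, and its adjusted p from 0.188 to 0.776. All genes called numbered 89, and 40 without the filter on low values, where more genes were tested. Leaving out 1 library gave 16 to 284 calls, the lowest without FUSO replicate 2 (a group left with 1 library is assumed to vary like the other). Genes of the 8 lists called numbered 5, and 2 without the filter, and 0 to 7 when 1 library was left out. Replicate numbers did not pair the libraries (correlation of deviations 0.0243 between Control 1 and FUSO 1, 2 pairs): with the replicate block, 90 genes and 0 members were called, and 4 of the list genes, with LIF lost (adjusted p = 0.0838 by limma). With the replicate block and the GC correction, 70 genes were called, and CLCF1 (adjusted p = 0.0519) and LIF (0.0858) were not.

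The difference in family peaks per list, FUSO minus Control, was -1 and ran from -2.5 to 0.5 with 1 list left out, reversing without Control replicate 2 (0.5). The difference in bases was -90.5 nt, reversed to 92 nt at a p-value of at most 1e-05 and to 554 nt without Control replicate 2, with a range of -735 to 554 nt. The cause was not tested. Lost regions numbered 0 to 1 and gained regions 0 to 1 with 1 list left out: SOCS7 in exon 1 without Control 1, SOCS4 in exon 1 without FUSO 1, and SOCS7 near the 3′ end (lost) and SOCS1 (gained) without FUSO 2. Over all genes, 2403 of 21295 regions were lost without Control 1, and 1449 of 20918 without FUSO 1. Without FUSO 2, 945 of 21295 were lost and 2403 gained. Without Control 2, where the family had 0 of each, 1836 of 21015 were lost and 1386 gained. The family had 10 or 11 regions in these settings. Family regions lost and gained were both 0 under the other overlap and p-value settings, but some of these could not count the SOCS4 stretch as lost. Where peaks had to share 50% of both lengths, its Control peaks of 91 and 241 nt did not merge. At 1e-05 its Control 1 peak, with a deposited p-value of 0.00028, was left out. The absolute depth of all libraries is unknown, which limits what a missing peak or a level under 1 FPKM can show.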
